A study of Mus musculus with 26 samples.

Results

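Of 8624 CTCF motif matches whose C12 CpG had at least 5 CTCF M-ChIP reads on each DNA strand, 326 (3.78%) were strand-discordant, which means that methylation of the cytosines of the 2 strands differed by 40 percentage points or more. C12 is the CpG at positions 15 and 16 of the 19 bp motif. The cytosine of position 15 lies on the strand that reads as the motif (motif strand), and the cytosine paired with position 16 lies on the complementary strand (other strand). The 326 matches were selected on these measured methylation values, so their strand levels, differences and directions are descriptions and were not tested. They were set beside 6061 matches below 20% on both strands (low), 27 matches above 80% on both strands (high) and the remaining 2210 matches.

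All samples used here were KH2 mouse embryonic stem cells (mESC), a pluripotent line. They were grown with LIF and serum on irradiated feeder cells and depleted of feeders by pre-plating. In CTCF M-ChIP (2 samples), chromatin precipitated with an antibody to CTCF was tagmented by Tn5 transposase with methylated adaptors and bisulfite converted, which turns unmethylated cytosines into uracil, so that each read tells the methylation of its own strand. The same tagmentation on nuclei was M-ATAC (4 samples), aliquots before conversion were CTCF M-ChIP-NC and M-ATAC-NC (2 samples each), and CTCF ChIP and ATAC were made with Nextera adaptors (2 samples each). None of these cells carried an introduced KLF4 change, and the Klf4-/- samples of the series were not used. RNA-seq came from 2 samples of WT mESC. Methylation was deposited for merged replicates, so it has no replicate SD, and nothing states that samples came from separate cultures.

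CTCF is a zinc finger protein that binds insulators and loop anchors together with cohesin, and methylation of CpGs in its motif is known to weaken binding at many sites. A CpG is the same on both strands, and after replication the new strand is methylated by DNMT1, which UHRF1 brings to CpGs with methyl groups on the parent strand alone. In mESC the enzymes DNMT3A and DNMT3B add methylation without such a template, while TET enzymes oxidise it. The pooled RNA-seq table gave 106.69 TPM (the length-scaled transcript level, the authors' value over both samples) for Dnmt1, 160.69 TPM for Uhrf1, 67.52 TPM for Dnmt3a, 48.62 TPM for Dnmt3b, 140.51 TPM for Dnmt3l and 80.05 TPM for Tet1. Tet2 stood at 24.05 TPM and Tet3 at 1.86 TPM. Of CTCF and 6 related genes, Ctcf (82.94 TPM), the cohesin genes Rad21 (222.42 TPM), Smc1a (90.2 TPM) and Smc3 (160.22 TPM) and the alternative cohesin subunits Stag1 (45.83 TPM) and Stag2 (48.01 TPM) were at 10 TPM or more. The germ line paralog Ctcfl was at 0.91 TPM.

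The discordant sequences below come from the best covered motifs, which had more reads than most of the set. Over the 326 motifs the median was 6 reads on the less covered strand. Positions are GRCm38 (mm10), and sequences run 5′ to 3′ along the motif strand. They come from the deposited motif list and are written here in lower case with the C12 CpG in capitals, so their case does not mark repeats. Matches are named by the gene that holds them or, in intergenic sequence, by the gene with the nearest transcription start. The first 3 had the other strand higher and the next 3 the motif strand higher. Both came from the 6 best covered motifs of their direction, and not all 6 are shown. The last ones are the best covered match of the low group (Gins4) and of the high group (Gm26001).
Gm11728, chr11:117049106-117049124, + strand: tggccacaagagggCGgtg
Psmb9, chr17:34177368-34177386, - strand: aggccagaagagggCGact
Sfxn5, chr6:85291303-85291321, + strand: tggccagaagagggCGcca
Ngdn, chr14:55011316-55011334, - strand: cggccaaaagagggCGcca
Gm5641, chr3:54488002-54488020, + strand: cacccacaagggagCGccc
Tmod3, chr9:75528250-75528268, + strand: aggccagaaggaggCGttc
Gins4, chr8:23237883-23237901, - strand: tcgccacaagacggCGctg
Gm26001, chr4:136130032-136130050, + strand: aggccagaaggaggCGtca

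The other strand was the higher of the pair in most discordant motifs. It was higher in 281 motifs (3.26% of all C12 CpGs measured) and the motif strand was higher in 45 (0.522%). In the 281 motifs the mean methylation was 21.3% on the motif strand and 72.0% on the other strand. In the 45 motifs it was 75% on the motif strand and 25.7% on the other strand. Over all 8624 C12 CpGs the means were 11.1% and 14.8%, in the low group 1.86% and 2.32%, and in the high group 91.4% and 91.3%. The median difference was 47.9 percentage points in the 281 motifs and 46.7 in the 45 motifs, and the widest were 90.0 and 80. No motif was free of methylation on 1 strand and fully methylated on the other. The motif strand had no methylated read in 64 of the 281 motifs, and the other strand was methylated in every read in 41 of them.

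**Figure D1:**
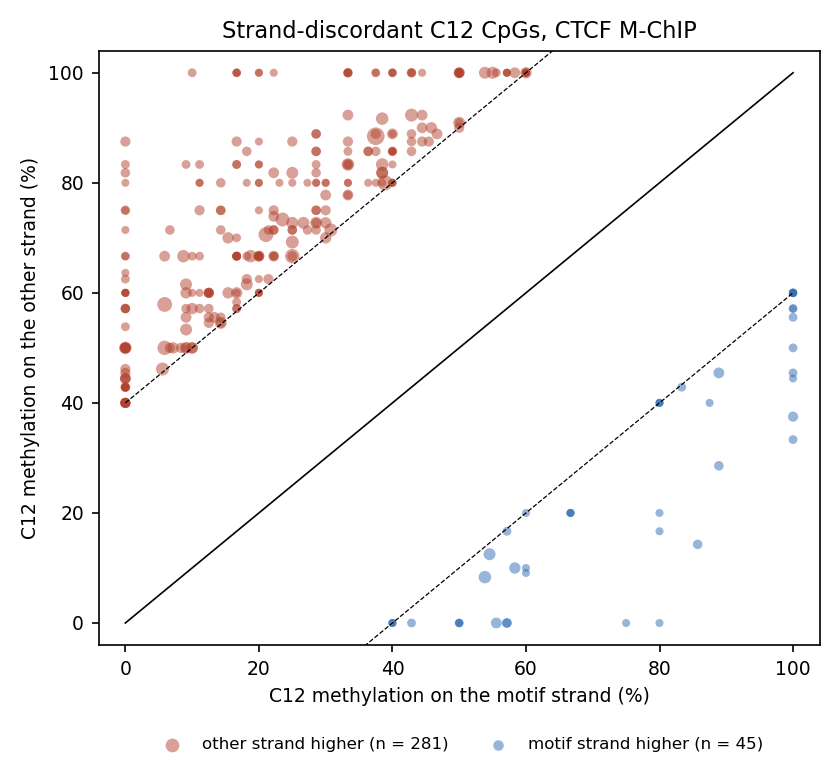
Methylation of C12 on the motif strand (x axis, %) and on the other strand (y axis, %) at the 326 strand-discordant motifs in merged CTCF M-ChIP. Each point is a motif with an area that grows with the reads on its less covered strand, the solid line marks equal methylation and the dashed lines the limit of 40 points, and 281 points lie above and 45 below.

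The motif near Gm11728, a non-coding RNA gene whose nearest transcription start lay 8927 bp away, had the most reads on its less covered strand. It was methylated in 9 of 24 reads on the motif strand (37.5%, 95% Wilson interval 21.2 to 57.3%) and in 23 of 26 reads on the other strand (88.5%, 71.0 to 96.0%). Intervals cover counting error only, since reads of a pool need not come from separate cells. The intervals of the 2 strands lay apart, as here, at 31 of the 326 motifs (9.51%) and overlapped at the rest. They lay apart at 30 of the 281 motifs with the other strand higher (10.7%) and at 1 of the 45 with the motif strand higher (2.22%).

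The intergenic motif near Psmb9, the gene of an immunoproteasome subunit 6177 bp away, had 7 methylated of 18 reads (38.9%) and 16 of 20 reads (80%) on the motif and the other strand. In an intron of Sfxn5, which encodes a mitochondrial carrier, the values were 1 of 17 reads (5.88%) and 11 of 19 reads (57.9%). An intron of 1700065J11Rik on chromosome 6 held a motif with 4 of 19 (21.1%) and 12 of 17 (70.6%) methylated reads. All 6 best covered motifs of this direction had a less methylated motif strand that was not free of methylation, from 5.88% to 38.9%. The motifs near Tspan17, a tetraspanin gene, and in an intron of Gm26786 had 1 of 17 reads (5.88%) and 4 of 16 reads (25%) on the motif strand, against 8 of 16 (50%) and 12 of 18 (66.7%) on the other.

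In the opposite direction the reads were fewer. The motif near Ngdn, a gene of ribosomal RNA processing, had 7 methylated of 13 reads (53.8%, Wilson interval 29.1 to 76.8%) on the motif strand and 1 of 12 reads (8.33%, 1.49 to 35.4%) on the other strand. An intron of Tmod3, which caps the slow growing end of actin filaments, held a motif with 8 of 8 reads (100%) and 3 of 8 reads (37.5%). The motif near Gm5641 had 8 of 9 reads (88.9%) and 5 of 11 reads (45.5%). The other 3 best covered motifs of this direction, near Gm45587 and Hspe1-ps4 and in an intron of Gm26938, had 54.5 to 58.3% on the motif strand and 0 to 12.5% on the other.

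At the limit of the rule, the motif in an intron of 1700112D23Rik (30.0% and 70.0%, 10 reads on each strand) and the one near Tmem250-ps (1 of 10 and 7 of 14 reads) differed by exactly 40 points and were inside, as were 45 motifs in all. The motifs in introns of Tmco4 (18.8% and 58.3%) and of Mmp9, a matrix gelatinase gene (43.8% and 83.3%), differed by 39.6 points and were outside. With 5 reads a strand moves in steps of 20%.

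Discordant motifs were thinly covered. Their median read number was 8 on the motif strand and 7 on the other strand, against 12 and 11 in the low group. High motifs had 7 and 7 and remaining motifs 9 and 9, so fewer reads than at low motifs were not particular to the discordant ones. The discordant share fell with read number in both directions. Where the less covered strand had 5 reads, 95 of 1157 C12 CpGs (8.21%, Wilson interval 6.76 to 9.93%) had the other strand higher and 25 (2.16%, 1.47 to 3.17%) the motif strand. With 10 to 14 reads these were 37 of 2445 (1.51%, 1.10 to 2.08%) and 3 (0.123%, 0.0417 to 0.360%). With 15 reads or more, 7 of 1280 CpGs (0.547%, 0.265 to 1.12%) had the other strand higher and 0 the motif strand, which allows a share of up to 0.234% (3 counts of 1280, with an upper Wilson bound of 0.299%). Methylation fell along the same bins, from 18.6% and 23.7% on the motif and other strand at 5 reads to 5.14% and 7.22% at 15 reads or more, and the part of counting error in the discordant share was not tested.

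**Figure D2:**
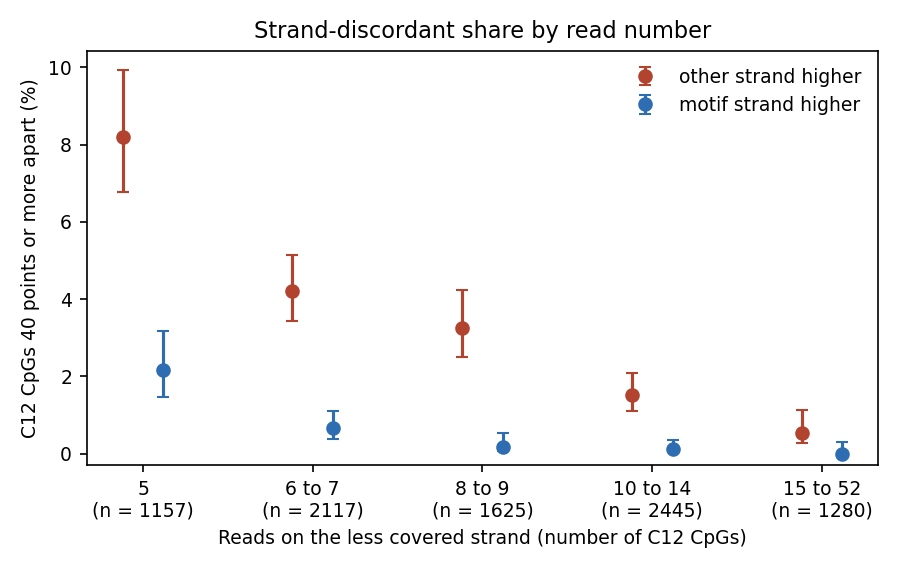
Share of C12 CpGs (y axis, %) that differed by 40 points or more, by the reads on the less covered strand (x axis, with the number of CpGs), for each direction in merged CTCF M-ChIP. Points are shares and bars 95% Wilson intervals, and the other strand was the more often higher strand in all 5 bins, from 8.21% at 5 reads to 0.547% at 15 reads or more.

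The same direction prevailed on both strands of the genome assembly. Among 4339 motifs on the + strand, 124 (2.86%) had the other strand higher and 20 (0.461%) the motif strand. Among 4285 motifs on the - strand these were 157 (3.66%) and 25 (0.583%). Motifs with the other strand higher outnumbered the rest on 20 of 21 chromosomes, and chromosome Y, with 2 C12 CpGs, held neither. The excess also grew with the difference below the limit of the rule. The other strand was the higher in 55.4% of 1819 CpGs that differed by less than 10 points, in 63.9% of 1347 at 10 to 20 points, in 71.4% of 646 at 20 to 30 points and in 80.1% of 317 at 30 to 40 points.

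A pair of CpGs stood in the set in both directions, because motif matches on opposite strands overlapped at the same CpG. They lay in a UTR of Crhr2, a corticotropin-releasing hormone receptor gene, and near AC091309.2. With each CpG counted once, under its better scoring match, 324 were left, of which 281 had the other strand higher and 43 the motif strand. Of all C12 CpGs, 28 were in a second match.

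The strand difference was not the same at all CpGs of the motif. At position 5 (C2, the other CpG that is common in the motif), the mean over 1515 CpGs was 2.20% on the motif strand and 3.57% on the other strand, and 16 CpGs differed by 40 points or more with the other strand higher against 2 with the motif strand higher. At position 1 the order was turned, with 8.72% on the motif strand and 7.90% on the other strand over 1072 CpGs, and 8 against 16 CpGs. Position 2 had 10.6% and 9.25% over 929 CpGs. Position 18 had the highest methylation, 18.3% and 20.1% over 694 CpGs, with 22 against 8. Among CpGs with 20 to 80% methylation over the reads of both strands, 267 had the other strand higher by 40 points or more and 41 the motif strand at C12 (n = 1915), 15 and 2 at C2 (n = 59), 8 and 16 at position 1 (n = 137), 8 and 9 at position 2 (n = 156) and 17 and 8 at position 18 (n = 217). These counts rest on the same pool of reads and on different motifs, so no test was made between positions.

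**Figure D3:**
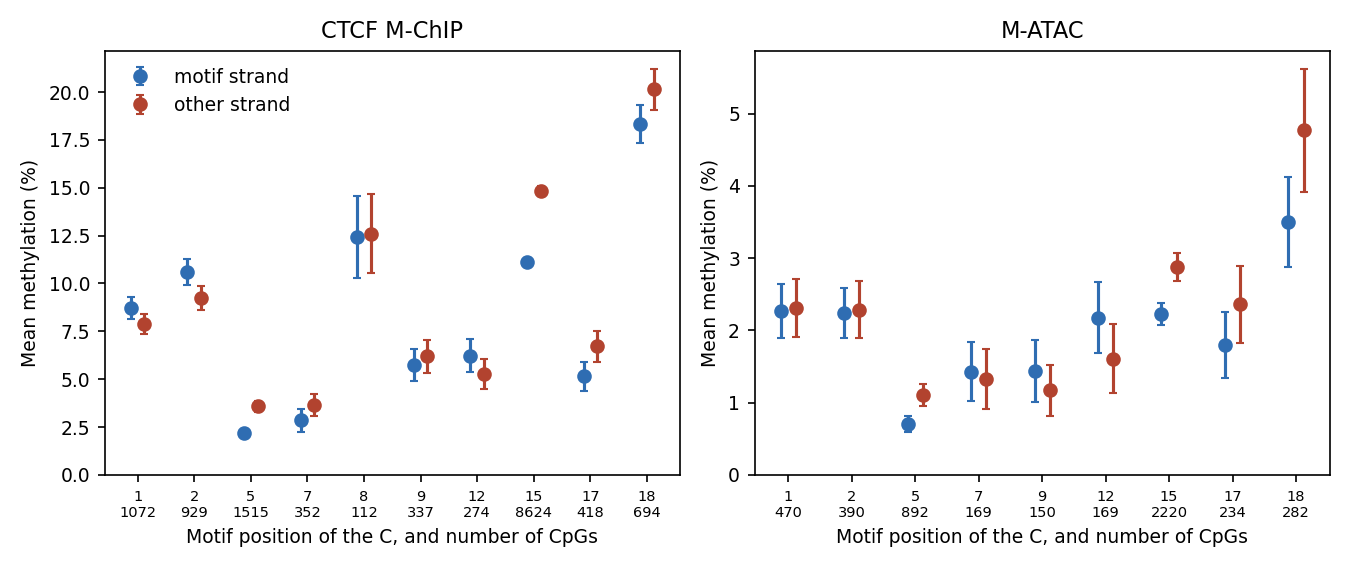
Mean methylation (y axis, %) of CpGs with at least 5 reads on each strand, by the motif position of the C (x axis, with the number of CpGs), on the motif strand and the other strand in merged CTCF M-ChIP (left) and M-ATAC (right), with bars that show the standard error over CpGs. At position 15 (C12) the means were 11.1% and 14.8% in CTCF M-ChIP and 2.23% and 2.88% in M-ATAC, and the y axes differ between the panels.

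Other CpGs of the discordant motifs give a measure that the rule did not use, although the same fragments can cover both. There were 37 of them with 5 reads on each strand, in 33 motifs. In motifs with the other strand higher at C12, the other CpGs averaged 28.0% on the motif strand and 46.4% on the other strand (n = 32), and the other strand was the higher in 24 and the lower in 6. All 5835 such CpGs averaged 7.59% and 7.95%. A difference of 40 points or more was found in 6 of the 37, all with the other strand higher, against 2.02% of all other motif CpGs and 19 of 252 (7.54%) in remaining motifs, which averaged 26.7% and 28.4%. In motifs with the motif strand higher at C12, 5 CpGs averaged 51.3% and 52.2%.

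None of the 37 passed the strand test (Fisher's exact test, two-sided, Benjamini-Hochberg adjusted over the 5835 CpGs), nor did any of the 5835 (0% called). At the few reads of most of the 37, a call could hardly be reached after adjustment, so its absence decides nothing. Unadjusted p was under 0.05 at 3 of the 37 and 45 of the 5835. The 3, named here after their values were seen, were C2 CpGs of motifs in an intron of Fcgr1, the gene of an Fc receptor (6 of 14 against 8 of 8 reads, exact p = 0.0177), in an intron of Cdh4, a cadherin gene (0 of 7 against 4 of 6 reads, exact p = 0.0210), and near Ndufa8, the gene of a respiratory complex I subunit (0 of 10 against 3 of 5 reads, exact p = 0.0220). The other strand was the higher at each of the 3. At C2, the 7 CpGs of the motifs with the other strand higher at C12 averaged 7.42% on the motif strand and 42.2% on the other strand, and none had the motif strand higher.

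M-ATAC came from other libraries, but few discordant motifs were open. Only 12 of the 326 (3.68%, Wilson interval 2.12 to 6.32%) lay inside a peak of the merged M-ATAC samples, against 2499 of 6061 low motifs (41.2%, 40 to 42.5%), 219 of 2210 remaining motifs (9.91%) and 0 of 27 high motifs, which allows a share of up to 11.1% (3 counts of 27, with an upper Wilson bound of 12.5%). Those 12 had M-ATAC reads on both strands, and 4 had 5 reads or more on each. All 4 had the other strand higher in CTCF M-ChIP. Their sequences are shown because they are the only discordant motifs with this second measurement.
Gm12679, chr4:44973551-44973569, + strand: tgaacaccaggaggCGgca
Agtpbp1, chr13:59515276-59515294, + strand: tacccactaggaggCGctg
Timm44, chr8:4267810-4267828, + strand: ccaccactggggggCGgtc
Afap1l2, chr19:57008635-57008653, - strand: gatcaagcaggaggCGctc

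In an intron of Gm12679, 1 of 13 M-ATAC reads (7.69%) was methylated on the motif strand and 2 of 9 (22.2%) on the other, after 2 of 14 and 6 of 11 reads in CTCF M-ChIP. In an intron of Agtpbp1, which encodes a tubulin deglutamylase, M-ATAC gave 2 of 6 reads (33.3%) and 0 of 10 reads, while CTCF M-ChIP gave 0 of 6 and 6 of 12. In an intron of Timm44, a gene of the mitochondrial import motor 162 bp from a transcription start, M-ATAC gave 2 of 5 reads (40%) and 1 of 7 (14.3%), while CTCF M-ChIP gave 0 of 5 and 7 of 11. The motif 411 bp from a start of Afap1l2 had no methylated M-ATAC read in 7 and 10.

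The direction in M-ATAC was thus the same at 1 motif, the opposite at 2 and undecided at 1. The mean M-ATAC difference in the direction of CTCF M-ChIP was -11.1 percentage points ± 22.3 (SD over the 4 motifs). None passed the strand test (Fisher's exact test, two-sided, adjusted p = 1 at each, over 397349 M-ATAC CpGs of which 0% passed and 504 had an unadjusted p under 0.05). With so few reads and an adjustment over so many CpGs, a call could hardly be reached, so its absence decides nothing about these motifs. Over the 4 motifs, 5 of 31 M-ATAC reads (16.1%, Wilson interval 7.09 to 32.6%) were methylated on the motif strand and 3 of 36 (8.33%, 2.87 to 21.8%) on the other.

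Over the 11 motifs of this direction with any M-ATAC reads on both strands, 9 of 77 reads (11.7%, Wilson interval 6.27 to 20.7%) were methylated on the motif strand and 19 of 76 (25%, 16.6 to 35.8%) on the other. The other strand was the higher at 7 motifs and the lower at 3. The motif in an intron of Rnf122, a RING finger gene, held 6 of the 19 methylated reads (0 of 2 against 6 of 8 reads). Those near Gm37168 (3 of 5 against 3 of 4 reads) and Gm17657 (0 of 2 against 3 of 12) and in an intron of Abr (0 of 2 against 2 of 5) held most of the rest. Over all 2220 C12 CpGs of motif matches with 5 M-ATAC reads on each strand, the mean was 2.23% on the motif strand and 2.88% on the other strand, with a mean difference of 0.647 points (standard error over CpGs 0.162).

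All discordant motifs lay in merged CTCF M-ChIP peaks, as their choice requires. In CTCF ChIP, which took no part in the choice, 308 (94.5%) and 324 (99.4%) of the 326 motifs lay inside a peak of the first and the second sample, against 99.6% and 99.9% of low motifs. In CTCF M-ChIP-NC, the aliquots of the CTCF M-ChIP preparations before conversion, the shares were 51.8% and 80.1%, against 83.6% and 94.5%. In CTCF M-ChIP itself they were 88.3% and 77.9%, against 98.2% and 89.7%. The share was lower than that of low motifs in all 6 samples. The CTCF M-ChIP samples supplied the reads that the rule used. CTCF M-ChIP-NC came from the same preparations, so the 6 samples are not separate measures of this. High motifs had 92.6% and 96.3% in CTCF ChIP, 55.6% and 81.5% in CTCF M-ChIP-NC and 81.5% and 77.8% in CTCF M-ChIP. Remaining motifs had 98.8% and 99.95%, 66.2% and 86.9%, and 94.2% and 84.3% in the same order. High motifs were below low motifs in every sample, and remaining motifs in all but the second CTCF ChIP sample. A share below that of low motifs was thus not particular to the discordant ones. At discordant motifs the mean share was 96.9% ± 3.5 (SD, n = 2) in CTCF ChIP and 83.1% ± 7.4 (SD, n = 2) in CTCF M-ChIP. The difference of 13.8 points moved to 8.59 points without CTCF M-ChIP replicate 2. Low motifs averaged 99.8% and 93.9% in these assays. Over all 8624 C12 motifs the shares were 99.2% and 99.9% in CTCF ChIP and 96.7% and 87.8% in CTCF M-ChIP. A lower share in CTCF M-ChIP was thus not particular to the discordant motifs. Only 2 against 2 samples were at hand, and no test was made.

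Where a peak was called, enrichment over the local background was also weaker. The median fold enrichment at discordant motifs was 10.9 and 14.1 in the CTCF ChIP samples, against 13.6 and 17.1 at low motifs. In CTCF M-ChIP it was 8.31 and 7.26 against 10.7 and 8.43, and in CTCF M-ChIP-NC 6.76 and 7.89 against 8.24 and 9.21. Within each of the 6 samples the discordant motifs had a lower median than low motifs, though CTCF M-ChIP and its aliquots share the preparations that the rule used. In CTCF ChIP the ranges of the sets overlapped between samples. Remaining motifs, at 12.1 and 15.6 in CTCF ChIP, and high motifs, at 10.1 and 15.5, were also below low motifs there, so a weaker peak than at low motifs was not particular to the discordant ones.

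**Figure D4:**
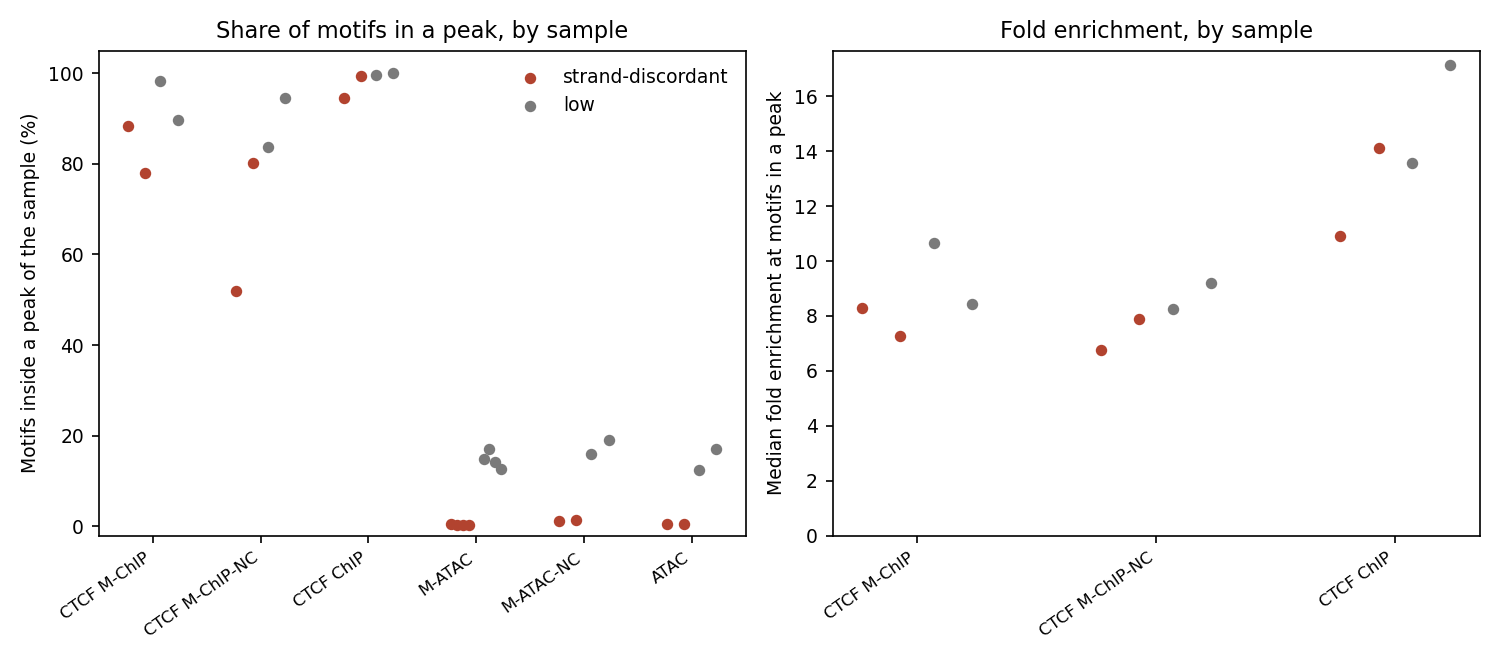
Share of motifs inside a peak of each sample (left, y axis, %) and median fold enrichment at the motifs inside a CTCF peak (right) for the 326 strand-discordant and 6061 low C12 motifs, with a point for each sample of each assay. Within each CTCF sample the discordant motifs were lower in both values, and in the ATAC kinds of sample their share was at most 1.53%. The CTCF M-ChIP samples supplied the reads of the rule, and CTCF M-ChIP-NC were aliquots of the same preparations.

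Read number moved with this difference. In the merged CTCF M-ChIP peaks the median fold was 10.4 at discordant and 12.7 at low motifs, a difference of -2.35, and at motifs with 10 reads or more on each strand the difference was -0.119. Split by the reads on the less covered strand, the merged median was 9.25 at discordant and 9.69 at low motifs with 5 reads, and 10.3 and 10.7 with 6 to 7 reads. It was the higher at discordant motifs with 8 to 9 reads (12.4 and 12.1), with 10 to 14 reads (14.5 and 13.9) and with 15 or more (18.7 and 17.7). Thus the order in the merged peaks was turned from 8 reads on. Among motifs with 5 reads the medians in the CTCF ChIP samples were 9.67 and 12.8 at discordant motifs (n = 120) against 10.7 and 14.5 at low motifs (n = 563). With 6 to 7 reads they were 9.98 and 13.8 (n = 103) against 11.6 and 15.1 (n = 1368). With 8 to 9 reads they were 12.6 and 16.2 (n = 56) against 12.8 and 16.4 (n = 1105), and with 10 to 14 reads 14 and 17.5 (n = 40) against 14.4 and 18.1 (n = 1912). With 15 reads or more only 7 discordant motifs were left, at 14.7 and 19.7 against 17.4 and 21.1. Discordant motifs had the lower CTCF ChIP median in each of these bins, by the least at 8 to 14 reads.

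Open chromatin was scarce in single samples too. Of the 326 discordant motifs, 1 or 2 (0.307 to 0.613%) lay in a peak of each of the 4 M-ATAC samples, 4 and 5 (1.23% and 1.53%) in M-ATAC-NC and 2 (0.613%) in each ATAC sample. Low motifs were in a peak at 12.8 to 17% in M-ATAC, 16.1% and 19% in M-ATAC-NC and 12.5% and 17% in ATAC. The shares of discordant and low motifs did not overlap in these 8 samples. Over all C12 CpGs measured the share was 9.21 to 13.9%, at remaining motifs 1.13 to 2.58% and at high motifs 0% in each sample. A share below that of low motifs was thus not particular to the discordant ones. ATAC exceeded M-ATAC by 0.230 points at discordant motifs, a difference of less than 1 motif.

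The commonest core sequence was found in a minority of the discordant motifs, more often than in low and about as often as in remaining motifs. Over positions 4 to 16, the commonest core of the discordant motifs was ccagaagagggCG (capitals mark C12). It was carried by 117 of 326 discordant motifs (35.9%, Wilson interval 30.9 to 41.2%), 465 of 6061 low motifs (7.67%, 7.03 to 8.37%), 14 of 27 high motifs (51.9%, 34.0 to 69.3%) and 693 of 2210 remaining motifs (31.4%, 29.5 to 33.3%). It was the commonest core of low motifs as well. The next core of the discordant motifs was ccagcagagggCG, in 12 of them (3.68%) and in 3.65% of low motifs.

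Taking all 1289 C12 CpGs in the commonest core, 117 (9.08%) were discordant, 103 with the other strand higher and 14 with the motif strand. Their mean methylation was 26.2% on the motif strand and 34.6% on the other strand. In the core ccagcagagggCG, 12 of 298 (4.03%) were discordant, at means of 10.1% and 12.7%. Base by base, discordant motifs had A at position 1 in 57.4% (low motifs 19.6%), G at position 7 in 73.6% (42.3%), A at position 8 in 57.4% (23.3%), A at position 11 in 69.6% (41.3%) and T at position 17 in 27.3% (8.03%). Remaining motifs lay near the discordant ones at these positions, with 47.9%, 69.6%, 53.7%, 60.5% and 23.3%.

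Repeats were common among the discordant motifs. A motif was taken as soft-masked where the deposited sequence was in lower case, which marks repeats in the genome sequence. This was so for 101 of 326 discordant motifs (31%, Wilson interval 26.2 to 36.2%), 533 of 6061 low motifs (8.79%, 8.11 to 9.53%), 14 of 27 high motifs (51.9%) and 697 of 2210 remaining motifs (31.5%, 29.6 to 33.5%). Short interspersed repeats of rodents are known to carry CTCF motifs, and the family of each repeat was not analysed here. Another copy of the 31 bp around C12, after conversion on either strand, was found in the genome for 116 discordant motifs (35.6%), 488 low motifs (8.05%), 30.2% of remaining and 59.3% of high motifs. At the motif near Tspan17 the sequence of the motif strand had 118 copies. Without such motifs, 210 discordant motifs were left, of which 181 had the other strand higher and 29 the motif strand. Without soft-masked motifs, 225 were left, with 197 and 28. The part of reads placed at a wrong copy was not tested.

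**Figure D5:**
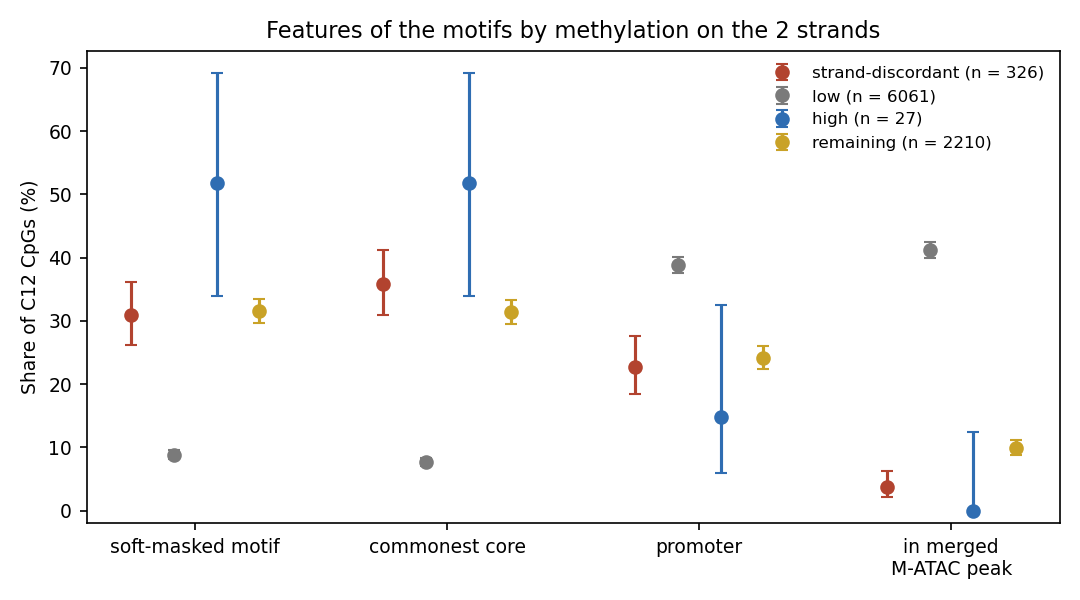
Share of C12 CpGs (y axis, %) with a soft-masked motif, with the commonest core of discordant motifs, within 3 kb of a transcription start (promoter) and inside a merged M-ATAC peak, for discordant, low, high and remaining motifs, with 95% Wilson intervals. Discordant and remaining motifs lay close together in the first 3 features and at 3.68% and 9.91% in the last, and low motifs lay at 8.79%, 7.67%, 38.9% and 41.2%.

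In the motif score, which FIMO computed from the MA0139.1 matrix, discordant motifs had a median of 17.1, remaining motifs 17.2 and low motifs 18.4. Around C12, the median number of CpGs in 201 bp was 3 at discordant, 3 at remaining and 5 at low motifs, and C12 was the only CpG of that window at 57 of the 326 (17.5%) and at 6.72% of low, 16.1% of remaining and 29.6% of high motifs. The median GC content was 46.8% at discordant, 47.8% at remaining, 46.8% at high and 51.7% at low motifs.

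A smaller share of discordant than of low motifs lay in promoters. In the GENCODE M21 annotation, 74 of the 326 lay no more than 3 kb from a start (22.7%, Wilson interval 18.5 to 27.5%), against 2355 low motifs (38.9%, 37.6 to 40.1%) and 24.1% of remaining motifs. Another 142 (43.6%) were in genes and 110 (33.7%) between genes. By the annotation at C12, 177 were in introns, 7 in coding exons, 3 in UTRs, 8 in exons of transcripts without coding sequence and 131 outside genes. The median distance to a start was 8294 bp at discordant, 8378 bp at remaining, 7450 bp at high and 5100 bp at low motifs. These genes and distances describe position, and no link to expression was tested.

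The RNA-seq table also checked the cell type. All 8 pluripotency genes were at 228.85 TPM or more, Pou5f1 at 656.93 TPM and Nanog at 461.4 TPM. Of 8 fibroblast genes that feeders express, 4 were at 10 TPM or more, with Col1a1 at 48.69 TPM, and their sum was 126.43 TPM against 8726.04 TPM for the pluripotency genes. Endoderm genes reached 33.46 TPM (Gata4), neural genes 9.74 TPM (Nes) and mesoderm genes 0.86 TPM (T). DNA of other cells in the CTCF M-ChIP pool and its part in the strand differences was not tested.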

How the data were processed

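Per the labels and the study's methods, reads were aligned to mm10, converted ones with Bismark 0.18.1, after trimming with Trim Galore 0.4.4. After tagmentation, gaps were filled from a dNTP mix before bisulfite conversion. The authors' methylation tables give the count of methylated and unmethylated reads and the percent for each cytosine of merged replicates. Which M-ATAC replicates were merged is not given in the sources used here. The deposited MACS2 peak lists give a ratio (fold enrichment) and a −log10 q-value for each summit. The deposited motif matches carry a FIMO score and a FIMO p-value, and the authors' expression table TPM. KLF4 peak lists were not used.

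All 43074 motif matches equalled GRCm38.p6. Of 13410 with CG at positions 15 and 16, 13131 had reads on both strands, and 8624 had 5 or more. Read counts summed over cytosines came to 415587 at 44814 cytosines in CTCF M-ChIP and to 15305775 at 1636992 in M-ATAC. A read that covers several cytosines counts at each. A motif counted as inside a peak at 1 bp of overlap, with the fold of the nearest summit. Fisher's exact tests were two-sided and adjusted by Benjamini-Hochberg. The test was checked on reads simulated at the CTCF M-ChIP read numbers of the 8624 C12 CpGs. No simulation was made for M-ATAC or for the other motif CpGs, so the check does not cover the tests reported here. Wilson intervals had a level of 95%.

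The members, gene lists and rule for named motifs were chosen with earlier results of these data known. Named were the 6 best covered motifs of each direction, up to 6 with M-ATAC reads, 2 on each side of the limit, and the best covered low and high motif. Alternatives changed read minimum, limit, motif p, peaks, repeats, copies and samples. Tools were python 3.11.15, scipy 1.17.1, pandas 2.3.3 and numba 0.67.0.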

Additional observations from a re-analysis of the deposited data

Results flagged for a closer look

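Among the 4 M-ATAC samples, the first had 2 discordant motifs inside a peak (0.613%) and the others 1 each (0.307%), which gives a Dixon's ratio of 1 against a critical value of 0.829. The ratio was taken for 4 values of the M-ATAC samples. Since the other values are equal, it is 1 however small the difference, which is that of 1 motif. The usual rate of about 1 in 20 such groups past the critical value does not hold for tied counts.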

How the results depend on the processing

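The number of discordant motifs depended on the read minimum and on the limit. It was 742 with at least 3 reads on each strand, 206 with more than 5 and 47 with at least 10, 643 at 30 points, 62 at 60 points, and 210 without motifs that have another copy of the converted 31 bp. The share with the motif strand higher was 13.8%, and 9.71% with more than 5 reads and 6.38% with at least 10, and stayed below 50% under all 11 alternatives. The CTCF fold at discordant minus low motifs was -3.32, -1.34 and -0.119 with at least 3, more than 5 and at least 10 reads, and the last is smaller than the spread of this value between the CTCF M-ChIP samples (SD 0.836, n = 2). In each read bin from 8 reads on, the merged median was the higher at discordant motifs. The alternatives without repeats and without other copies were chosen after seeing the data.

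The mean M-ATAC difference turned from -11.1 to 1.74 points with at least 3 M-ATAC reads (7 motifs) and to 14.5 with at least 10 CTCF M-ChIP reads (1 motif). With at least 10 M-ATAC reads no discordant motif was left. No alternative brought a call in the strand tests, at the 4 motifs in M-ATAC or at the other motif CpGs, where the few reads left little room for a call. At discordant motifs the share in peaks of CTCF ChIP minus CTCF M-ChIP rose from 13.8 to 24.1 points with −log10 q of at least 5. It ranged from 8.59 to 19 with each sample left out. ATAC minus M-ATAC turned from 0.230 to -0.0767 points both with a summit within 100 bp of the motif centre and with −log10 q of at least 5, and ranged from 0.204 to 0.307 with each sample left out. The causes were not tested. For methylation, no paired analysis was possible because it was deposited for merged replicates. Shares of motifs in peaks are given as values of each sample, with discordant and low motifs side by side. No test, paired or not, was made on these shares. Reads on each strand, mostly under 10 at discordant motifs, limit how far a strand level can be told from its partner.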

Other observations

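Some genes held more than 1 discordant C12 CpG, named here after their values were seen. In Cdh13, a cadherin gene, Slc39a11, a zinc transporter gene, and Fry, both CpGs lay in introns and had the other strand higher, with 100% against 16.7% and 44.4% against 0% at Cdh13. The pair nearest to Diras2, a gene of the Ras family, also had the other strand higher, at 100% against 33.3% and 66.7% against 20%. In introns of Parva, which links integrins to actin, the directions were opposite. There 1 motif had 2 of 9 methylated reads on the motif strand and 5 of 7 on the other, and the second, on the opposite genome strand, had 4 of 7 and 0 of 7.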
